A study of Sus scrofa with 16 samples.

Results

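Cytosolic ribosomal proteins are the protein part of the large and small ribosomal subunits, which join on mRNA to make all proteins that the nucleus encodes. Their mRNAs carry a 5′ terminal oligopyrimidine (TOP) stretch, through which growth signals control their translation together, and the subunits are assembled with ribosomal RNA in the nucleolus and finished in the cytoplasm. In muscle, ribosome number is known to follow growth, and myoblasts are known to alter ribosome production as they leave the cell cycle and fuse.

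The genes were chosen by name: every gene whose symbol begins with RPL or RPS followed by a number, with RPLP1, RPLP2 and RPSA, and without the kinases named RPS6K. This gave 43 of 3875 genes in the count table, 25 of the large subunit and 18 of the small subunit, and all 43 passed the filter on low counts in each of 5 comparisons. RPLP0, RPS6, RPS14, RPS19, RPL4, RPL22, RPS27A and the paralogs RPL3L, RPL10L, RPL22L1, RPL39L, RPS27L, RPS4Y1 and RPS4Y2 were not analysed here. Ribosomal protein genes have many processed pseudogenes and some close paralogs, so the counts of RPL26 and RPL26L1, RPL7 and RPL7L1, and RPL36AL are uncertain where reads could match a near-identical copy.

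The cells were satellite cells (SCs), the stem cells of skeletal muscle, from the intercostal (INT) muscle of 3-day-old male piglets: 4 DMD animals, a model of Duchenne muscular dystrophy that lacks exon 52 of the dystrophin gene, and 4 WT animals. Each animal gave SCs in differentiation (DIFF), in medium with 5% horse serum for 10 days according to the sequencing methods and 7 days according to the culture methods, and in proliferation (PROL), in growth medium with 20% fetal bovine serum. The 4 groups of 4 were thus DMD DIFF, WT DIFF, DMD PROL and WT PROL. All were primary cultures at passage 6 that had been sorted with magnetic beads, against CD31 and CD45 and for ITGB1, NCAM1 and M-cadherin, so they are enriched but not clonal populations. The passage and the sort were shared by all groups, and the medium differed between DIFF and PROL in both genotypes.

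Gene expression was measured by 3′ mRNA sequencing, which counts the ends of polyadenylated transcripts. Totals were 1110050 to 1781174 counts per library, and 608 genes had no count. The *DMD* gene had 30 to 48 counts in DMD DIFF, against 12 to 22 in WT DIFF, and 24 to 32 in DMD PROL, against 6 in each WT PROL library. Tags at the 3′ end do not test for an exon in the middle of the gene. CPM here are counts scaled to library size and TMM normalization factors. Of 16 muscle markers 12 were counted, and their summed level was 19059 to 22891 CPM in DMD DIFF, against 3024 to 5283 in WT DIFF. It was 5998 to 9693 CPM in DMD PROL, against 306 to 433 in WT PROL, with MYF5 at 0 in all WT libraries. The 8 fibroblast markers counted, of 14, summed to 10154 to 13191 CPM in DMD DIFF, against 22077 to 25191 in WT DIFF, and to 4169 to 4624 CPM in DMD PROL, against 8343 to 10131 in WT PROL. By the rule given below 6 of the 8 were called lower in DMD DIFF and 0 higher, beside 17.5% and 16.1% of all genes. COL1A2, the most abundant of them, went the other way in DIFF, with a mean of 9109 CPM in DMD DIFF and 7918 CPM in WT DIFF. Endothelial, blood cell and adipocyte markers stayed at or under 163 CPM in any library. The libraries labelled WT SCs therefore held little of the muscle markers in PROL, and the part of these differences in cell makeup in the results below was not tested. In such bulk samples, fewer cells of a type and less RNA per cell cannot be told apart.

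Transcripts of the 43 genes made up 26.85% to 38.9% of the counts of a library, with the lowest mean in DMD DIFF. The share was 26.9%, 26.9%, 28.2% and 30.3% in DMD DIFF, against 35.3%, 38.9%, 36.5% and 35.2% in WT DIFF. It was 35.3%, 34.9%, 33.8% and 29.2% in DMD PROL, against 34.6%, 35.5%, 31.98% and 32.2% in WT PROL. Every DMD DIFF library thus lay below every WT DIFF library, while DMD PROL and WT PROL overlapped. The large subunit averaged 12.9% ± 0.640 in DMD DIFF and 17.2% ± 0.811 in WT DIFF (SD, n = 4 each), and the small subunit 15.2% ± 0.977 and 19.3% ± 0.930, so both subunits were lower in DMD DIFF. These shares are a description of the libraries and have no test.

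RN18S, the 18S ribosomal RNA, is no mRNA, and it took 6.32% to 20.4% of counts. The highest share was in DMD PROL replicate 4, whose technical duplicates held 31.99% and 7.14% RN18S, and whose ribosomal protein share was 24.8% and 34.2%. With RN18S left out of the total, the members took 30.4%, 30.03%, 30.8% and 32.5% in DMD DIFF, against 39.3%, 42.2%, 39.4% and 38.3% in WT DIFF. In PROL they took 38.4%, 37.8%, 37.0% and 36.7% in DMD SCs, against 36.9%, 38.4%, 35.3% and 35.4% in WT SCs. On this scale every DMD DIFF library lay below every other library. With the TMM scaling used for CPM, DMD DIFF at 27.6% to 31.4% overlapped WT PROL at 27.5% to 31.2%.

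**Figure D1:**
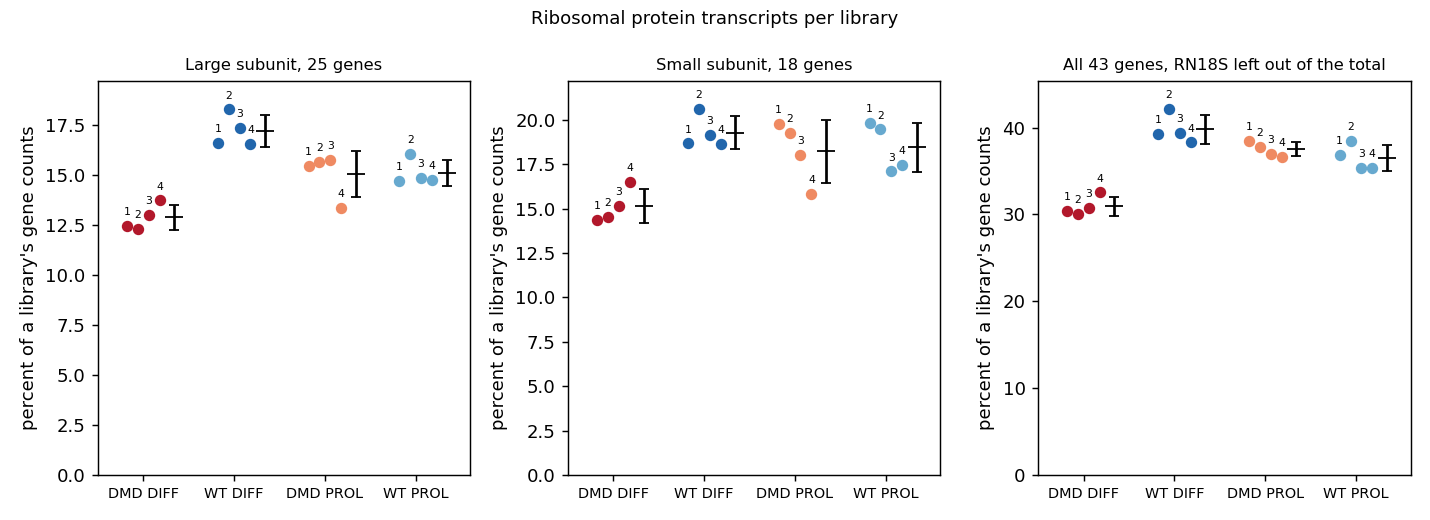
Share of each library's counts in ribosomal protein genes, in percent, for the large subunit (left), the small subunit (middle) and all 43 genes with RN18S left out of the total (right). Points are libraries numbered by replicate and the bars are mean and SD (n = 4); the 4 DMD DIFF libraries lie below the 4 WT DIFF libraries in each panel, at 30.03% to 32.5% against 38.3% to 42.2% in the right panel.

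In DIFF, ribosomal protein transcripts were lower in DMD SCs than in WT SCs across almost the whole family. A gene was called when its adjusted p in edgeR's quasi-likelihood test (Benjamini-Hochberg over all genes tested) was under 0.05 and its log2 fold change was over 0.6 in size. By this rule 11 of 43 were called lower and 0 higher, beside 33.6% of all 1916 genes tested called, 17.5% lower and 16.1% higher. With the adjusted p alone, 38 of 43 were lower and 2 higher, against 24.8% and 22.9% of all genes, 47.7% together. The median log2 fold change was −0.44 over the 43 genes and −0.03 over all genes tested, and it was −0.44 for the large and −0.45 for the small subunit. In 31 of 43 every DMD library lay below every WT library and in 1 above, patterns that 23.2% and 22.1% of all genes showed.

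The largest difference was in RPL10, which joins the large subunit late, beside the site where peptide bonds form. RPL10 had 4039, 4116, 4396 and 4594 CPM in DMD DIFF, against 8143, 9181, 9448 and 8011 CPM in WT DIFF, with no overlap. Its log2 fold change was −1.03 (SE 0.09, edgeR adjusted p = 1.4e-07). In PROL it had 4676, 4739, 4531 and 4629 CPM in DMD SCs, against 4097, 4419.8, 5006 and 4118 CPM in WT SCs, and the groups overlapped. RPL10 was thus high in the 4 WT DIFF libraries and lay at 4039 to 5006 CPM in the others.

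RPL3 is another large subunit protein near the peptidyl transferase centre. Its levels were 3830.2, 3697, 3761 and 4115 CPM in DMD DIFF, against 6497, 8017, 7291 and 6641 CPM in WT DIFF. The log2 fold change was −0.89 (SE 0.09, edgeR adjusted p = 8.2e-07), and the groups did not overlap. In PROL RPL3 had 5256, 4971, 5061 and 5030.4 CPM in DMD SCs, against 4550.3, 4729, 4553 and 4423 CPM in WT SCs. There its log2 fold change was 0.14 with an adjusted p of 0.12 in edgeR's test, although every DMD library lay above every WT library in CPM. By library size alone, without TMM factors, the log2 fold change of RPL3 in PROL was 2.4e-04.

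RPL11 and RPL5 carry the 5S ribosomal RNA into the large subunit, and when free they bind MDM2, the ubiquitin ligase of p53. RPL11 had 10619, 10716, 10885 and 11916 CPM in DMD DIFF, against 17125, 21471, 18854 and 18102 CPM in WT DIFF (log2 ratio −0.78, SE 0.09, adjusted p = 3.7e-06 by edgeR). RPL5 had 3642, 3388, 3132 and 3607 CPM in DMD DIFF, against 5041, 4807, 4767 and 3857 CPM in WT DIFF. Its log2 ratio of −0.43 (SE 0.10, adjusted p = 0.0019 by edgeR) passed the p but not the fold threshold. All 4 DMD libraries were below all 4 WT libraries for both genes.

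In the small subunit RPS26 and RPS28, which lie where mRNA leaves the ribosome, were lower in DMD DIFF. RPS26 had 6793, 7237, 7079 and 10722 CPM, against 12547, 13465, 16728 and 14926 CPM in WT DIFF (log2 ratio −0.86, SE 0.14, adjusted p = 1.5e-04 by edgeR). DMD DIFF replicate 4 was well above the other DMD DIFF libraries, and leaving it out gave −1.04. RPS28 had 6295, 6081, 6477 and 7188 CPM in DMD DIFF, against 10727, 12457, 10862 and 10191 CPM in WT DIFF (log2 ratio −0.77, SE 0.09, adjusted p = 4.3e-06 by edgeR). The groups overlapped for neither gene.

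RPS20, a protein of the small subunit's head, was among the 3 members with the highest CPM, which for 3′ tags is not scaled to length. It had 17211, 17396, 17641 and 19979 CPM in DMD DIFF, against 29457, 34529.8, 30888 and 29610.2 CPM in WT DIFF (log2 ratio −0.79, SE 0.09, adjusted p = 2.7e-06 by edgeR). RPS4, of the small subunit's body, had 2918, 2959.6, 2949 and 3360.3 CPM in DMD DIFF, against 4950.4, 5130.2, 5208 and 4279.9 CPM in WT DIFF, a log2 ratio of −0.69 (SE 0.09, adjusted p = 1.4e-05 by edgeR). Both were lower in every DMD library. The other called genes were RPL17, which lines the tunnel through which the new protein leaves, at −0.84, RPL6 at −0.83, RPS13 at −0.66 and RPL14 at −0.92; the first 3 were singled out after their values were seen.

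**Figure D2:**
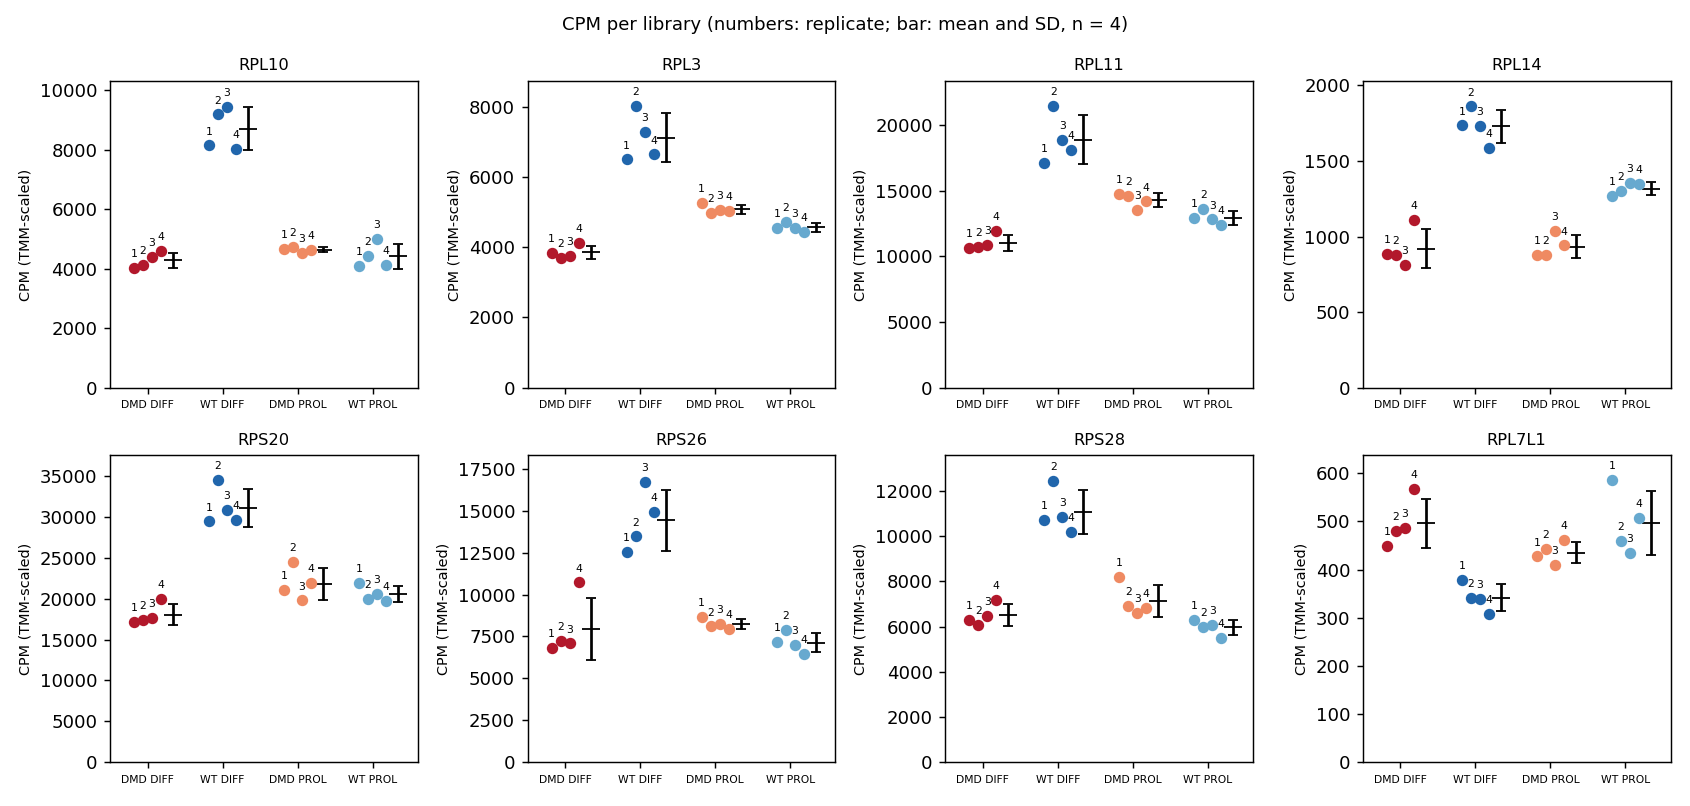
TMM-scaled CPM of 8 ribosomal protein genes in each library, by group, with replicate numbers and, at the right of each group, mean and SD (n = 4). In RPL10, for example, WT DIFF libraries lie at 8011 to 9448 CPM and the other groups at 4039 to 5006 CPM, whereas RPL7L1 is highest in WT PROL and DMD DIFF and lowest in WT DIFF.

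A few members differed from this pattern. RPL7L1, a paralog of RPL7 whose yeast relative Rlp7 is an assembly factor of the large subunit, had 449.9, 479.7, 487 and 567 CPM in DMD DIFF, against 379, 342, 339 and 308 CPM in WT DIFF. The groups did not overlap, and its log2 ratio of 0.53 (SE 0.10, adjusted p = 3.5e-04 by edgeR) was past the p threshold only. RPL26L1, a paralog of RPL26, had 332, 236, 262 and 289 CPM in DMD DIFF, against 204, 183, 258 and 217 CPM in WT DIFF, which overlapped. It gave 0.37 on the log2 scale (SE 0.13, edgeR adjusted p = 0.023). RPL27, RPL15 and RPS23 passed no threshold, at −0.09 (adjusted p = 0.44), −0.19 (0.125) and −0.11 (0.79) in the same test, where the adjusted p stands in parentheses; these 3 were named after their values were seen.

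RPS23 was also the least even member. It had 2809.9, 2939.8, 6686 and 4053 CPM in DMD DIFF, and its coefficient of variation was 43.6% there, against 19.3% in WT DIFF, and 40.1% in DMD PROL, against 47.3% in WT PROL. Its technical duplicates of a sample differed by up to 1.46 on the log2 scale, the most of any member. The median member varied by 7.37%, 8.82%, 5.85% and 7.40% in DMD DIFF, WT DIFF, DMD PROL and WT PROL, beside 17.7%, 17.5%, 17.5% and 18.7% for all tested genes. The median member thus varied less than the median gene in each group, but these medians were not matched for expression level. RPL26L1, the member with the lowest mean CPM, had at least 248 counts in every library. The filter on low counts kept genes with fewer. The part of counting precision in this gap was not tested. Besides RPS23, some members lay above the median gene, at 21.1% to 30.5%. These were RPL7 and RPS26 in DMD DIFF, RPL7 in DMD PROL and RPSA, RPL6 and RPS12 in WT PROL.

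In PROL, the genotypes differed little. No member was called in either direction, beside 18.2% of 1914 genes called, 8.36% higher and 9.87% lower. DESeq2 likewise called 0. With the adjusted p alone 9 were higher and 1 was lower in DMD PROL, against 13.3% and 13.6% of all genes, 26.9% together. The median was 0.14, beside −0.00 over all genes, and every DMD library lay above every WT library for 15 members and below for 1, against 15.8% and 14.2% of all genes. The 1 lower member was RPL14, with 879, 878, 1035 and 942 CPM in DMD PROL, against 1266, 1299, 1354 and 1349 CPM in WT PROL (log2 ratio −0.51, SE 0.08, adjusted p = 1.5e-04 by edgeR). RPL14 was lower in DMD SCs in both states, since in DIFF it had 883, 879, 811 and 1109.6 CPM, against 1736, 1860.4, 1732 and 1587 CPM in WT SCs. The direction of the family in PROL depended on scaling: 39 members were above and 4 below 0 with TMM, but by library size alone 20 were above and 23 below, with a median of −0.01.

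The step to DIFF differed between the genotypes. In WT SCs 12 of 43 members were called higher in DIFF and 0 lower, beside 32.2% of 1921 genes called, 17.9% higher and 14.3% lower. With the adjusted p alone 33 were higher and 1 was lower, against 24.8% and 22.0% of all genes, 46.7% together, and the median was 0.53, beside 0.03 over all genes. Every WT DIFF library lay above every WT PROL library for 32 members and below for 1, patterns of 23.6% and 19.5% of all genes. In DMD SCs 0 members were called in either direction, beside 28.4% of 1886 genes called, 16.0% higher and 12.4% lower, and DESeq2 also called 0. There the adjusted p alone marked 15 members as lower and 0 as higher, against 20.3% and 22.1% of all genes, 42.4% together, with a median of −0.15, beside 0.01 over all genes. Every DMD DIFF library lay below every DMD PROL library for 12 members and above for 1, RPLP1, patterns of 18.9% and 21.6% of all genes. The WT DIFF libraries enter both the genotype comparison in DIFF and the state comparison in WT, so the values of these comparisons are not independent.

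The members called higher in WT DIFF included the acidic stalk protein RPLP1, which draws elongation factors to the ribosome. RPLP1 had 13773, 15996, 13677 and 15086 CPM in WT DIFF, against 9219, 9023, 9008 and 8565 CPM in WT PROL (log2 ratio 0.69, SE 0.09, adjusted p = 1.3e-05 by edgeR). In DMD SCs it had 10581, 10646, 10647 and 11847 CPM in DIFF, against 10385, 9599, 10068 and 10207 CPM in PROL, a log2 fold change of 0.11 with an adjusted p of 0.24 in the same test. RPLP1 gave 0.34 in WT SCs by library size alone and was no longer called. Its stalk partner RPLP2 gave 0.57 in WT SCs (SE 0.11, edgeR adjusted p = 6.6e-04) and 0.17 in DMD SCs (adjusted p = 0.093). RPS26 rose in WT DIFF by 1.00 (SE 0.11, edgeR adjusted p = 2.0e-06), RPL10 by 0.96 and RPS28 by 0.87, and none of these passed in DMD SCs, at −0.06, −0.13 and −0.14. By library size alone RPS26 gave 0.65 and RPL10 0.61 in WT SCs, both still called, and RPS28 gave 0.52, which was not.

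RPS3, at the entry of the mRNA channel, had 9899, 10045, 10371 and 8195 CPM in WT DIFF, against 5515, 5309, 6102 and 5150.4 CPM in WT PROL. The log2 fold change was 0.79 (SE 0.10, edgeR adjusted p = 8.9e-06), and the groups did not overlap. RPL13A, which in human cells is also part of a complex that silences translation of inflammatory mRNAs, had 7758, 8487, 8091 and 6934 CPM in WT DIFF, against 4219.6, 4389, 5236 and 4231 CPM in WT PROL (log2 ratio 0.77, SE 0.10, adjusted p = 1.1e-05 by edgeR). RPS3 gave 0.44 and RPL13A 0.42 in WT SCs by library size alone, and neither was called. In DMD SCs their log2 fold changes were 0.05 and 0.08 with adjusted p of 0.65 and 0.45 in edgeR's test.

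RPSA, which is also known as a laminin receptor, passed in neither state comparison and spread widely in WT PROL. It had 14569, 10381, 8638 and 7418 CPM in WT PROL, and its log2 fold change between the states was 0.39 (SE 0.18, edgeR adjusted p = 0.10) in WT SCs and 0.10 (adjusted p = 0.39) in DMD SCs. RPS21 and RPL35 were the other members of these 3 with RPS20. RPS21 fell in DIFF by 0.34 in DMD SCs (SE 0.08, edgeR adjusted p = 0.0020) and gave 0.07 (adjusted p = 0.67) in WT SCs. RPL36AL, a paralog of RPL36A, gave a log2 change of −0.57 in DIFF in DMD SCs (SE 0.08, edgeR adjusted p = 1.2e-05) and −0.03 (adjusted p = 0.82) in WT SCs. RPS18, named after its values were seen, gave −0.54 (SE 0.08, edgeR adjusted p = 3.1e-05) and −0.14 (adjusted p = 0.23), so RPS21, RPL36AL and RPS18 were lower in DIFF in DMD SCs by the adjusted p, below the fold threshold, and did not pass in WT SCs with TMM. By library size alone all 3 were lower in DIFF in WT SCs too, at −0.28, −0.38 and −0.49 with adjusted p of 0.033, 9.9e-04 and 1.3e-04, and their interaction had adjusted p of 0.51, 0.088 and 0.50.

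The difference between the genotypes in the step to DIFF was tested with an interaction term over all 16 libraries. Of 43 members 23 were called with a lower change in DMD SCs and 1 with a higher one, beside 13.0% and 10.5% of 2030 genes, 23.4% together. With the adjusted p alone it was 37 and 1, against 15.7% and 13.2%, 28.9% together. The median difference was −0.62, beside −0.04 over all genes, at −0.62 for the large and −0.66 for the small subunit. RPL10 had −1.09 (SE 0.11, edgeR adjusted p = 1.6e-07), RPS26 −1.07, RPL3 −1.04 and RPS28 −1.02 on the log2 scale. The 1 member with a higher change was RPL7L1, at 0.73 (SE 0.14, edgeR adjusted p = 3.7e-04). RPL7L1 fell in WT DIFF by 0.56 (adjusted p = 6.2e-04 in the same test) and gave 0.18 in DMD SCs (adjusted p = 0.12).

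**Figure D3:**
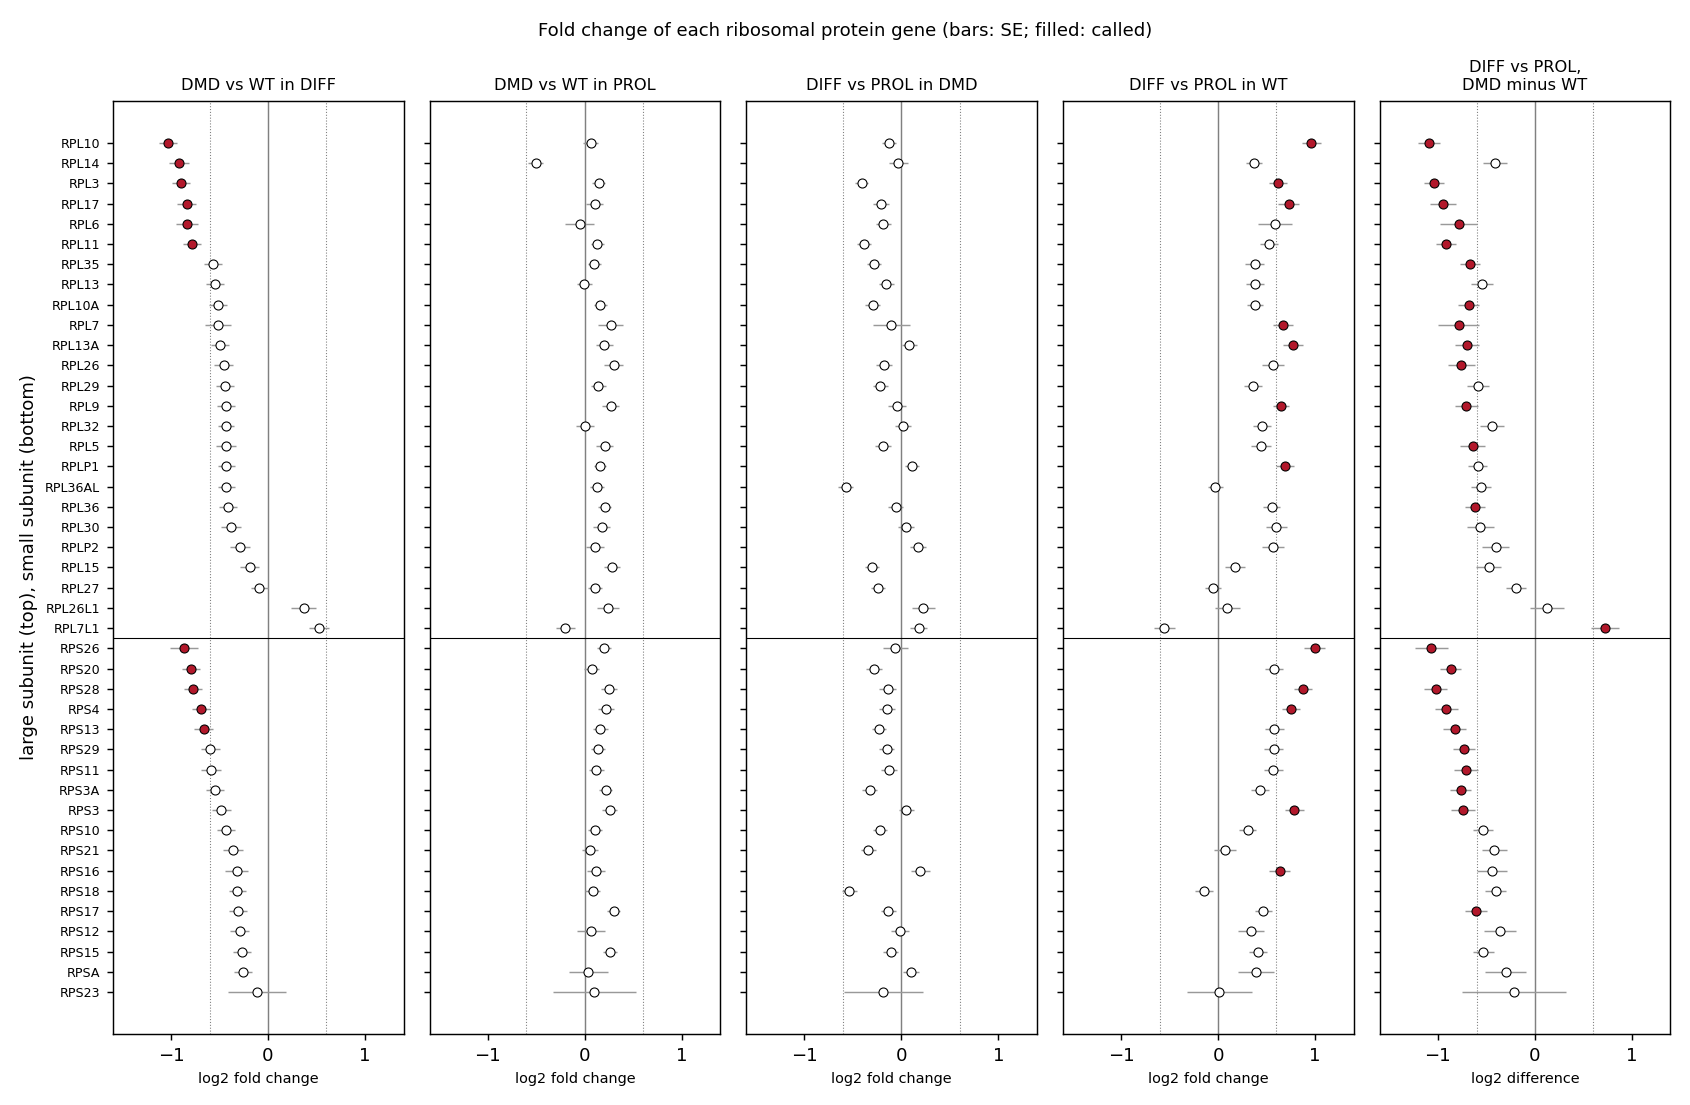
Log2 fold changes with SE (bars) of the 43 members in the 4 comparisons and the log2 difference of the state changes, DMD minus WT (right panel), large subunit above and small subunit below, ordered by the genotype difference in DIFF. Filled points were called, 11 in the first panel, 0 in the panels of DMD vs WT in PROL and DIFF vs PROL in DMD, 12 in the fourth and 24 in the fifth; dotted lines mark a log2 fold change of 0.6 in either direction. In PROL 39 members lie above 0, against 20 by library size alone.

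The animals showed the same difference singly. From log2(CPM + 1) in each animal, the median change of the 43 members from its own PROL sample was −0.25, −0.14, −0.17 and −0.01 in the 4 DMD animals, and 0.51, 0.63, 0.52 and 0.50 in the 4 WT animals. In DMD animals 11, 11, 7 and 20 of the 43 members were higher in DIFF and the rest lower, and in WT animals 35, 38, 40 and 40 were higher. DMD animal 4 was thus nearest to no change, and its PROL library is the one with 20.4% RN18S; with RN18S left out of the totals and no TMM factors its median was −0.15. For 33 of 43 members the change of every DMD animal lay below that of every WT animal, a pattern that 16.3% of the genes tested showed. By library size alone the medians were −0.37, −0.29, −0.30 and 0.07 in DMD animals and 0.15, 0.22, 0.18 and 0.15 in WT animals.

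**Figure D4:**
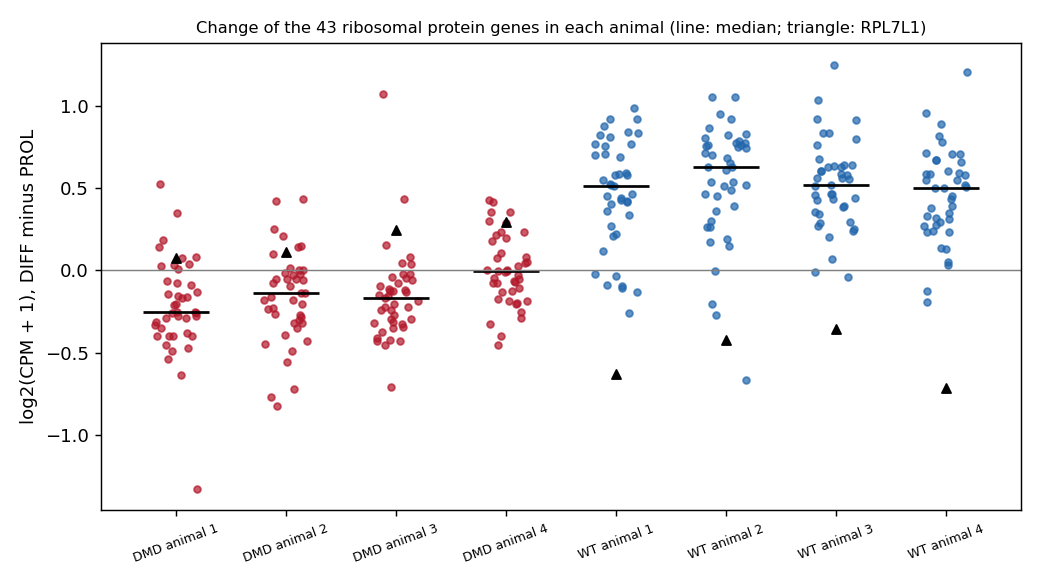
Change of log2(CPM + 1) between the DIFF and the PROL sample of each animal for the 43 members, DMD animals at the left and WT animals at the right; the line is the median and the triangle is RPL7L1. The medians run from −0.25 to −0.01 in DMD animals and from 0.50 to 0.63 in WT animals, while RPL7L1 lies above 0 in all DMD animals and below 0 in all WT animals.

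The size of the change, and how it was divided between the genotypes, depended on how libraries were scaled. TMM factors were 0.963 to 0.973 in DMD DIFF, against 0.864 to 0.916 in WT DIFF, and 0.915 to 1.07 in DMD PROL, against 1.11 to 1.17 in WT PROL. Leaving them out moved the median of all genes in the state comparison of WT SCs to −0.32, which moved the split of all calls to 194 higher and 564 lower, against 343 and 275 with TMM. In the interaction it moved that median to 0.25 and the split to 387 higher and 134 lower, against 213 and 263 with TMM, in PROL to −0.15 with 122 higher and 264 lower, against 160 and 189, and between the genotypes in DIFF to 0.10 with 387 higher and 267 lower, against 308 and 335. The members then had a median of 0.18 in WT SCs with 2 called higher and 1 lower. Between the genotypes in DIFF their median was −0.31 with 9 called lower and 1 higher, RPL7L1. In the interaction 7 had a lower and 1 a higher change. In DMD SCs RPL36AL and RPS18 were then called lower in DIFF, at −0.65 and −0.61, against −0.57 and −0.54 with TMM. The median changes of the WT animals moved to 0.15 to 0.22, from 0.50 to 0.63 with TMM. Those of DMD animals 1, 2 and 3 moved to −0.37, −0.29 and −0.30, from −0.25, −0.14 and −0.17, and that of DMD animal 4 to 0.07, from −0.01. Scaling moves all genes of a comparison by nearly the same amount, so the distance of the members' median to that of all genes could hardly change. It was 0.49 without TMM factors and 0.50 with them in WT SCs, and −0.41 both ways between the genotypes in DIFF. This likeness is therefore no test of the members' change. Of the members past the adjusted p with TMM, none turned its sign by library size alone except RPS10 in WT SCs, at 0.31 and −0.04.

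Set against the members' own sum, which asks how the composition of the family changed, RPL10 and RPL7L1 again lay at the ends. In DMD DIFF RPL10 was lower relative to that sum, at −0.51 on the log2 scale (SE 0.08, edgeR adjusted p = 1.9e-05), followed by RPL14 at −0.40 and RPL3 at −0.37. RPL7L1 was higher at 1.04 (SE 0.11, edgeR adjusted p = 3.9e-07) and RPL26L1 at 0.88, both called. RPL10 made up 1.48% ± 0.022 of the family's counts in DMD DIFF and 2.11% ± 0.110 in WT DIFF, and 1.43% ± 0.026 in DMD PROL and 1.50% ± 0.168 in WT PROL (SD, n = 4 each). In the DIFF comparison 10 members were higher and 9 lower by the adjusted p on this scale, so the members did not all differ by one common factor. With TMM scaling 47.7% of all genes passed the adjusted p in this comparison, so passing it is not particular to the members.

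How closely the members ran together over the 16 libraries is given as a description, since the libraries share the 4 groups. The correlation of each with the mean of the others was highest for RPS29 and RPS4, at 0.98 each, and for RPS28 and RPS13, at 0.97 each, all of the small subunit. It was −0.79 for RPL7L1 and −0.23 for RPL26L1, and low for RPL27, RPS18 and RPS23, at 0.10, 0.16 and 0.21. Outside the family the genes most like the members' mean were BTF3, EEF1B2 and PSME1, with correlations of 0.950, 0.937 and 0.932. BTF3 is a subunit of the nascent polypeptide-associated complex, EEF1B2 an elongation factor subunit and PSME1 a proteasome activator subunit. Next came NDUFS5 at 0.929, SLC46A3 at 0.920, SNAPIN at 0.915, EIF3L at 0.909 and ASB9 at 0.905. EFEMP1 and LOC100512700 had 0.904 each. A gene with the same pattern over the 4 groups scores high too, and joint regulation was not tested.

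FAU, a ribosomal protein gene whose name does not follow the rule because its product is made as a fusion with a ubiquitin-like part, was also lower in DMD DIFF. FAU had 5281 ± 1104 CPM in DMD DIFF and 9302 ± 2979.5 CPM in WT DIFF (SD, n = 4 each), a log2 ratio of −0.82 (SE 0.22, adjusted p = 0.014 by edgeR). In WT SCs it was called higher in DIFF, at 0.95 (SE 0.20, adjusted p = 0.0036 by edgeR), while in DMD SCs it gave 0.14 with an adjusted p of 0.52. FAU was called in neither by library size alone, at −0.70 between the genotypes in DIFF (adjusted p = 0.054) and 0.61 in WT SCs (adjusted p = 0.060).

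Of 18 genes listed for TOP mRNAs, not all of them translation factors, 7 were tested. In DMD DIFF 3 were called lower and 1 higher than in WT DIFF, beside 17.5% and 16.1% of all genes. EEF1A1, which brings aminoacyl-tRNA to the ribosome, had 10157 ± 579 CPM in DMD DIFF and 18088 ± 2299.7 CPM in WT DIFF (log2 ratio −0.84, SE 0.10, adjusted p = 4.2e-06 by edgeR). EEF1B2 and EIF3L, a subunit of the initiation factor eIF3, were lower by log2 fold changes of −0.68 and −0.73. EEF1E1, a protein of the aminoacyl-tRNA synthetase complex and no translation factor itself, was the gene of this list called higher, at 0.98. In WT SCs 3 of the 7 were called higher in DIFF and 1 lower, beside 17.9% and 14.3% of all genes. In DMD SCs it was 0 and 1, beside 16.0% and 12.4% of all genes. By library size alone the list's median in WT SCs was 0.03, against 0.38 with TMM, with 1 called higher and 2 lower, and between the genotypes in DIFF 1 was called in each direction.

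The nucleolar side of ribosome production differed from this. Of 42 listed and 10 tested genes of ribosomal RNA synthesis and ribosome assembly 5 were called lower and 0 higher in WT DIFF than in WT PROL, and 4 lower and 1 higher in DMD DIFF than in DMD PROL, beside 14.3% and 12.4% of all genes called lower. Their medians were −0.61 in WT SCs and −0.45 in DMD SCs, and −0.95 and −0.52 by library size alone. DKC1, the pseudouridine synthase of small nucleolar RNPs, had log2 fold changes of −1.04 and −0.77 in WT and DMD SCs, with adjusted p of 4.1e-06 and 1.5e-04 in edgeR's test. MRTO4, an assembly factor of the large subunit, was the only gene of the list called between the genotypes in DIFF, at 0.62 (SE 0.18, edgeR adjusted p = 0.010). Cycling markers summed to 480 to 632 CPM in DMD DIFF, against 1726 to 1843 in DMD PROL, and to 492 to 567 CPM in WT DIFF, against 1277 to 1609 in WT PROL. Their sum was thus lower in DIFF in both genotypes, and 5 of 6 tested were called lower in each, beside 12.4% of all genes in DMD SCs and 14.3% in WT SCs. MKI67, the largest part of the sum in DIFF, changed little, with means of 369 and 352 CPM in DMD and WT DIFF, against 405 and 425 CPM in PROL.

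Mitochondrial ribosomal proteins, which serve the ribosome inside mitochondria, gave few calls. Of 16 tested, 3 were called lower and 0 higher in DIFF in WT SCs, 1 lower in DMD SCs, and 1 was called higher in DMD DIFF than in WT DIFF, MRPL40 at 0.71 (SE 0.11, edgeR adjusted p = 4.0e-05). Of all genes, 14.3% were called lower in WT SCs, 12.4% lower in DMD SCs and 16.1% higher in DMD DIFF, so these shares are near or under the background. With the adjusted p alone 9 of the 16 were lower and 0 higher in WT SCs, beside 22.0% and 24.8% of all genes. In DMD SCs it was 3 and 0, beside 20.3% and 22.1%. Between the genotypes in DIFF 4 were higher and 0 lower, beside 22.9% and 24.8%. Without TMM, by library size alone, 10 of the 16 were lower in WT SCs and 3 were higher in DMD DIFF, directions in which the calls of all genes moved too. The medians were −0.42 in WT SCs, −0.16 in DMD SCs and 0.24 between the genotypes in DIFF with TMM. Of the 7 other translation factors tested, EIF4A2, a helicase of initiation, was called lower in DMD DIFF at −0.63 (SE 0.08, edgeR adjusted p = 9.7e-06) and rose in WT DIFF by 0.89, where EIF4A1 and EIF3I were called lower at −0.74 and −0.63. EIF4A2 was called in neither by library size alone, at −0.49 and 0.54, and 4 of the 7 were called lower in WT DIFF.

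Of 7 tested genes of growth signaling to ribosomes, 2 were called between the genotypes in DIFF, both higher in DMD SCs, beside 16.1% of all genes called higher, and the median of the 7 was 0.03. EIF4EBP1, the repressor of cap-dependent initiation that mTOR switches off, had 411 ± 32.1 CPM in DMD DIFF and 147.7 ± 35.9 CPM in WT DIFF (SD, n = 4 each), a log2 ratio of 1.47 (SE 0.14, adjusted p = 5.1e-07 by edgeR). DDIT4, an inhibitor of mTOR signaling, had 405 ± 64.9 and 203 ± 20.8 CPM, a log2 ratio of 0.99 (SE 0.12, adjusted p = 3.3e-06 by edgeR). In PROL DDIT4 was lower in DMD SCs, at −1.06, and EIF4EBP1 did not pass (−0.16, adjusted p = 0.33 in the same test). The PROL means of EIF4EBP1 were 310 CPM in DMD SCs and 344 CPM in WT SCs, and those of DDIT4 157 and 327 CPM. Between the states 3 of 7 tested genes of this list were called lower in WT DIFF and 0 higher, beside 14.3% and 17.9% of all genes. In DMD SCs 1 of 8 was called in each direction, beside 12.4% lower and 16.0% higher.

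**Figure D5:**
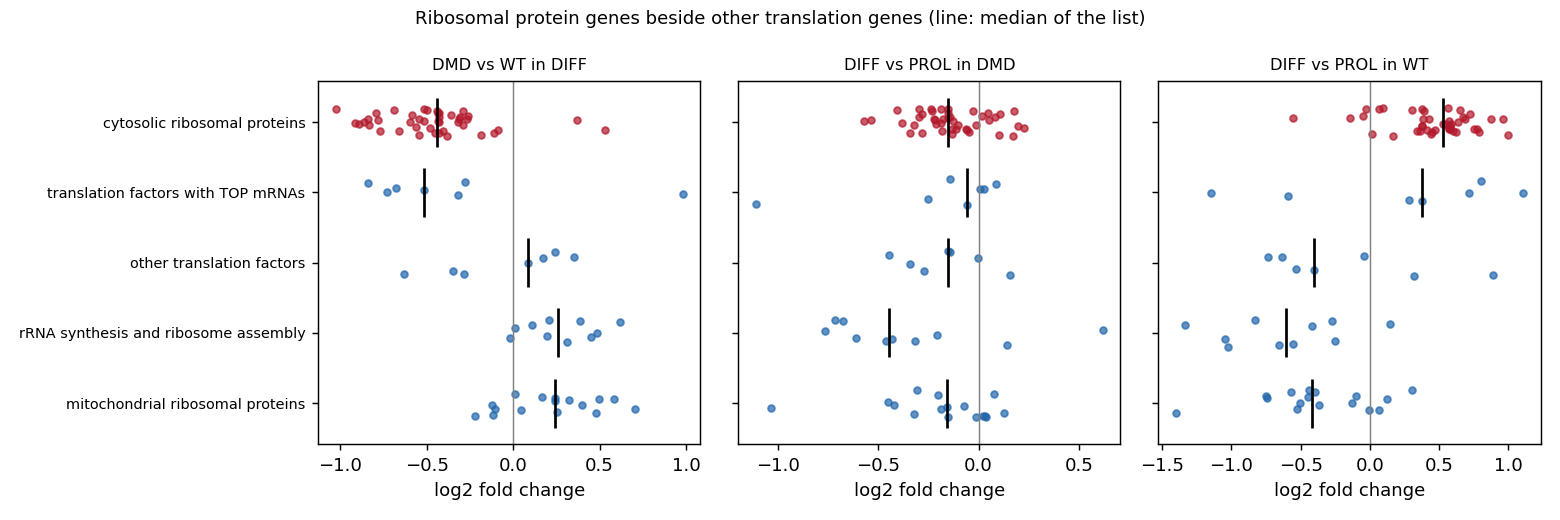
Log2 fold changes of the 43 members (top row) and of the tested genes of 4 other lists in 3 comparisons; each point is a gene and the line is the list's median. In DIFF the members' median lies at −0.44 between the genotypes and in WT SCs at 0.53, while the assembly genes lie at 0.26 and −0.61.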

How the data were processed

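The deposited files hold the authors' raw read counts per gene, in 32 columns for 2 technical duplicates of each of 16 samples, made from 25 ng of total RNA. According to the study's methods, bcl2fastq split the reads by sample, FastQC and MultiQC checked them and UMI-tools removed duplicates, after which STAR 2.7.10b mapped them to susScr3, a pig assembly, and counted them per gene. The authors' own analysis used R 4.1.2 and edgeR. The annotation and the strand setting are not given in the sources used here. All 124000 values were even, for which no reason is given; the counts were used as they stand.

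Duplicates were summed. Tests ran in R 4.3.3 with edgeR 4.0.16 (filterByExpr with minimum count 10 and minimum total 15, TMM, robust quasi-likelihood fit) and a Benjamini-Hochberg adjustment over all genes. Each genotype or state comparison used the 8 libraries of its groups, and the interaction all 16. CPM are scaled by TMM over 16 libraries; SE is the size of the log2 fold change over the root of F, and log2 ratio means log2 fold change. The members and lists were chosen with earlier results of these data known. Members named with values were, in each comparison, the 5 called with the smallest p in each direction, RPLP1, RPLP2 and RPSA, members with a known role outside the ribosome or in disease (RPL5, RPL11, RPS26, RPL10, RPL13A, RPS3), RPL3 and the paralogs RPL7L1 and RPL26L1, and the 3 highest and 3 lowest by mean CPM. Of other lists it was the 3 called with the smallest p, and the 10 genes most like the members by Pearson correlation. Members outside this rule were chosen after their values were seen. Alternatives were DESeq2 1.42.0, other scalings and filters, the replicate block, single duplicates and leaving out each library. The scripts were tested on simulated data. Both states came from the same animal, so they are paired; within animals, deviations from group means had correlations of 0.0998 to 0.172, and 8 of 8 libraries matched their own animal best. P-values measure the spread between these animals' cultures, and counting precision is limited by the depth of 1110050 to 1781174 counts. 1 gene of the lists is not reported here.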

Additional observations from a re-analysis of the deposited data

Results flagged for a closer look

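In 100 groups of 4 libraries tested for a sample far from the others, 11 held one, where chance gives about 1 in 20 for a single group. The groups are not independent, since they share the same 16 libraries and most members move together, so the 11 cannot be set against this rate. In DMD DIFF replicate 4 was the highest library for RPS20 (19979 CPM, the others 17211 to 17641), RPS26 (10722, the others 6793 to 7237), RPS4 (3360.3, the others 2918 to 2959.6), RPLP1 (11847, the others 10581 to 10647) and RPSA (12679, the others 10901 to 11168). In DMD PROL replicate 4 had 20.4% of counts in RN18S, the others 7.63% to 8.66%, and 13.3% in large subunit genes, the others 15.4% to 15.7%, while RPSA had 12202 CPM in replicate 1, the others 9924 to 10211. The ratio of large to small subunit counts was 0.905 in WT DIFF replicate 3, the others 0.887 to 0.889. In WT PROL replicate 2 had 16.1% in large subunit genes, the others 14.7% to 14.9%, and replicate 3 had 5236 CPM of RPL13A, the others 4219.6 to 4389. The cause was not tested.

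The change to DIFF differed between the genotypes by the interaction test, DMD minus WT on the log2 scale, for RPL10 (−1.09), RPL3 (−1.04), RPS26 (−1.07), RPS28 (−1.02), RPL11 (−0.92), RPS4 (−0.91), RPS20 (−0.87), RPS3 (−0.74), RPL13A (−0.70), RPL35 (−0.67), RPL5 (−0.64) and RPL7L1 (0.73).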

How the results depend on the processing

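With the adjusted p alone, members called higher and lower were 9 and 1 in the PROL comparison, 2 and 38 in DIFF, 0 and 15 in the DMD states, 33 and 1 in the WT states and 1 and 37 in the interaction. By library size alone they were 0 and 1, 1 and 9, 0 and 2, 2 and 1, and 1 and 7. Scaled to the members' own sum, chosen after seeing the data, they were 0 and 1, 2 and 0, 0 and 0, 0 and 2, and 2 and 0. The second duplicates alone gave 1 lower in PROL and 1 lower in the DMD states, and the first alone 1 higher in DIFF.

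Leaving out each library gave 11 to 13 lower in DIFF, 0 to 1 lower in the DMD states, 10 to 19 higher and 0 to 1 lower in the WT states (19 without WT DIFF replicate 4 and 10 without WT DIFF replicate 2), and 20 to 26 lower in the interaction. The mean shares of counts ran from 27.3% to 28.4% in DMD DIFF, against 35.7% to 36.9% in WT DIFF, and from 32.6% to 34.7% in DMD PROL, against 32.9% to 34.1% in WT PROL. Without RN18S the means were 30.9% in DMD DIFF, against 39.8% in WT DIFF, and 37.5% in DMD PROL, against 36.5% in WT PROL, and TMM scaling gave 41.3% in WT DIFF and 29.4% in WT PROL. With the replicate block, which pairs the states of an animal and, between genotypes, samples that share only a number, 11 members were lower in DIFF, 13 higher in the WT states and 23 lower in the interaction; no named member lost its call. RPL5 in the interaction and RPL3 in the WT states lay near the fold threshold, at −0.59 and 0.55 without some libraries. Of the calls of named members, 12 were lost by library size alone. Relative to the members' own sum 26 of 28 were lost, and RPL5 in the interaction turned to 0.017. Over all alternatives 654 such values kept their call, 45 lost it and that 1 turned. These totals do not measure robustness. The adjusted p alone could lose none of its 28 calls, and the members' own sum, which takes out their shared change, gave 26 of the 45 losses. The cause was not tested.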
